A study of Mus musculus with 22 samples.

Results

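The change that remained in the kidney when cisplatin was given together with the adenosine receptor A2AR antagonist KW6002 (istradefylline) was measured by comparing the 6 cisplatin plus KW6002 libraries with the 5 vehicle libraries, 11 of the 22 kidney libraries of the series. All mice were male C57Bl6/J, 8 to 10 weeks old. The cotreated mice received 6 daily intraperitoneal injections of cisplatin at 3 mg/kg, and KW6002 at 3 mg/kg every day from 5 days before the first cisplatin dose to day 7, while the vehicle mice received the DMSO, cremophor and saline carrier. Kidneys were taken 72 h after the last cisplatin injection, and the RNA is from whole kidney, so all cell types of the organ are pooled in each library. The groups given cisplatin alone (n = 5) or KW6002 alone (n = 6) entered the same fit and are used here only for reference.

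Cisplatin forms adducts with DNA and accumulates in proximal tubule cells, which take it up through organic cation transporters. The damage activates the transcription factor p53, and injured tubule cells lose part of their transport machinery while switching on injury, cytokine and antioxidant genes. Adenosine acting on its receptor A2AR raises cyclic AMP in vascular, immune and epithelial cells. Programs were therefore read in order, from the DNA damage response through inflammation and detoxification to tubular transport, mitochondria, matrix and the cell cycle.

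Each library held between 26471762 and 34726619 read counts in these 11 samples, and 17131 of the 32858 genes in the table passed the filter on low counts. Markers of the labelled tissue were present: the summed level of 10 proximal tubule markers was 28390 to 29510 CPM (read counts scaled to the effective library size) in vehicle and 15090 to 19700 CPM in cotreated kidneys, and none of the nephron, podocyte or endothelial markers was at 0 in either group. Since whole kidney was sequenced, fewer cells of a type and less RNA of these genes per cell cannot be told apart. Markers of other tissue were not level across the libraries. Of 12 fat markers, 8 fell and none rose, and their sum was 2836 to 6308 CPM in vehicle and 1744 to 4315 CPM in cotreated kidneys. The sum of 9 adrenal markers was 1.46 to 2.61 CPM in vehicle and 1.99 to 3.25 CPM in cotreated replicates 1 to 5, but 84.4 CPM in cotreated replicate 6, with Th, a catecholamine enzyme of the adrenal medulla, at 0 in every cotreated library. Vehicle replicates 1 to 3 belong to the sample numbers in the 300s and all other libraries described here to those in the 500s. The sum of 12 macrophage markers was 533.7 and 504.4 CPM in vehicle replicates 1 and 2 against 214 to 234 CPM in vehicle replicates 3 to 5. With the mean log2 CPM of the 12 fat markers as a covariate (the fat covariate), 1921 genes were called in place of 2300. Of these, 928 were higher and 993 lower. The part of these differences in a result below was not tested, except where a value within the 500s series, with the number series as a covariate or with the fat covariate is given.

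Cotreated kidneys remained far from vehicle at many genes. By edgeR's quasi-likelihood test, 999 genes were called higher, at a log2 fold change above 1 with adjusted p under 0.01, which is 5.83% of the 17131 genes tested, and 1301 were called lower, which is 7.59%. At an adjusted p below 0.05 with no fold threshold, 5108 genes (29.8%) rose and 5114 (29.9%) fell, and below, "rose" and "fell" refer to this test. Where the call of a named gene is said to be lost or not to hold, adjusted p below 0.05 was no longer reached. Such a gene need not be among the genes called. A gene is said to be at vehicle level only where 2 one-sided tests placed its log2 fold change within 0.5 of 0 (adjusted p below 0.05), and 7062 genes (41.2%) met that rule. Of these, 3048 also passed the test for a difference, so that their change was detectable but small. For 2895 genes (16.9%) neither test passed, and they are assigned to neither side. Of the genes named below, Zfp365, Fosl1, Cxcl2, Gsta1, Ugt2b35 and Il6 had under 10 reads in every vehicle library. They passed the filter, at least 10 reads in 5 libraries, only through groups where they were higher. Their p-values are to be read with that selection. At the genes named below that passed the test for a difference and were not at vehicle level, no cotreated library reached the vehicle range unless overlap is stated. Of all 17131 genes tested, 6417 had groups that did not overlap. The genes named for the largest changes were picked among genes without overlap, so for them this adds nothing to the test. Scaling by library size instead of TMM moved the median change of all genes from 0.00 to 0.16 on the log2 scale and the share of called genes that were higher from 43.4% to 56.5%.

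The lists below were put together from general knowledge with earlier results of these data known, so the counts describe the lists. No test was run over a list. Each count is to be read against the shares over all genes tested, of which 29.8% rose, 29.9% fell, 41.2% were at vehicle level and 13.4% were called. Library size scaling shifts every list median upward by about the shift of all genes. The bars of genes by outcome show that p53 targets, immediate early genes and injury genes were mostly higher, while proteasome subunits, respiratory chain subunits and lysosomal genes were mostly within the vehicle bound.

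**Figure D1:**
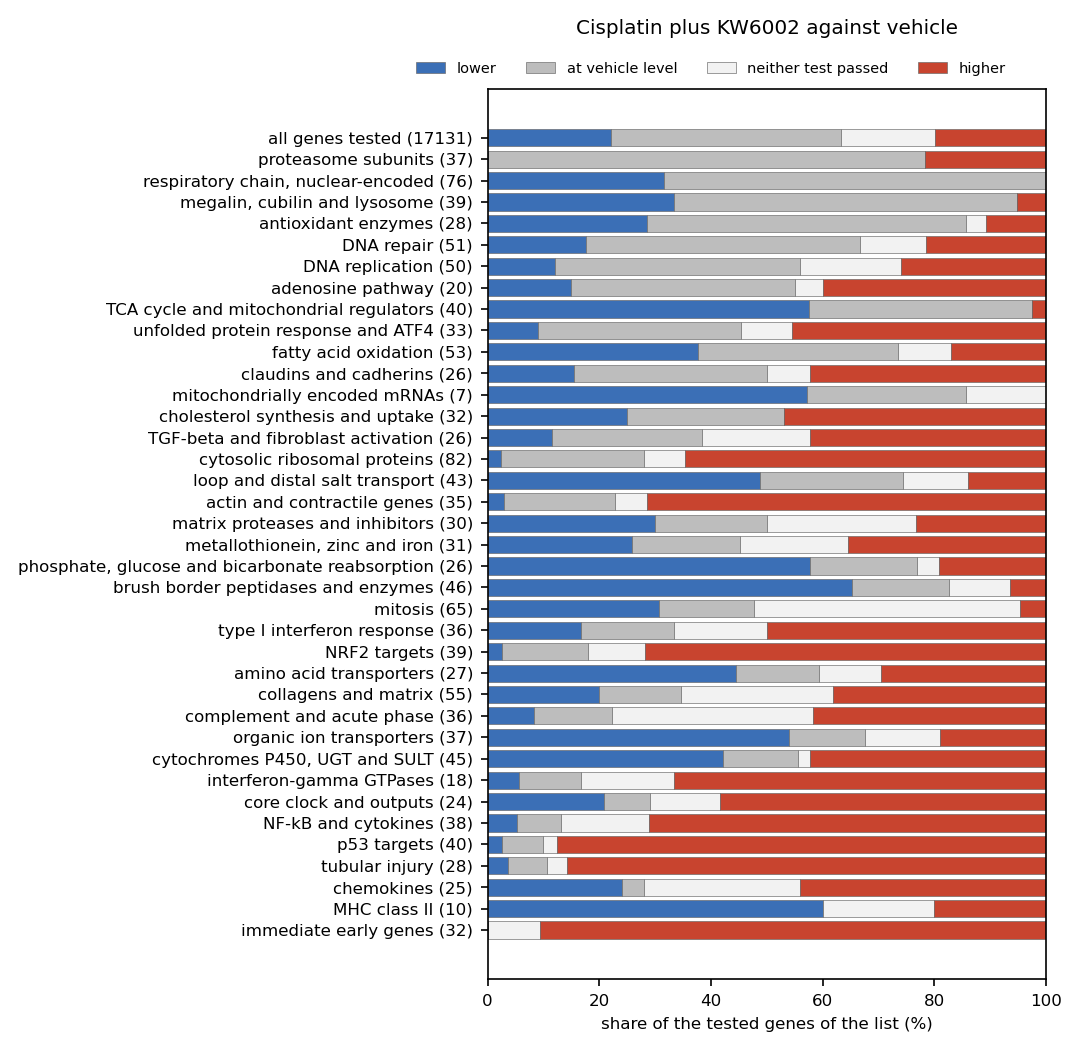
Share of tested genes per list (x axis, percent of the list's tested genes; y axis, list with its number of tested genes) that were lower than vehicle, at vehicle level, decided by neither test, or higher than vehicle in cisplatin plus KW6002 kidneys (n = 6 against 5). Genes at vehicle level are counted only there, so higher and lower hold the changes that were not within the bound; the immediate early genes have no gene at vehicle level and the proteasome has 29 of 37.

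The p53 program stayed high. Of 40 p53 target genes, all of them tested, 35 rose (27 called), 1 fell and 3 were at vehicle level, with a median log2 fold change of 2.04 against 0.00 for all genes. Cisplatin alone, measured against the same 5 vehicle libraries, had a median of 2.498 over this list. Cdkn1a (chr17:29090976-29100727, mm10), the cyclin-dependent kinase inhibitor p21, was at 10.6, 10.99, 6.65, 14.4 and 12.6 CPM in the 5 vehicle libraries and between 501 and 698 CPM (median 652) in the 6 cotreated libraries. Every cotreated library therefore lay above every vehicle library (log2 fold change 5.81, SE 0.21, adjusted p = 2.80e-14). The sequence just upstream of Cdkn1a is shown because it is the only promoter among the 30 p53 targets with an entry that holds the p53 site core, CATG, any 6 bases, CATG, in the window from 250 bases before to 50 after a gene start; 0.439% of the 12305 tested genes with a promoter hold it. The stretch runs along the plus strand at chr17:29090879-29090978 (RefSeq, GRCm38.p6), and the capitals mark the site core, which starts 48 bases before the gene start.
Cdkn1a: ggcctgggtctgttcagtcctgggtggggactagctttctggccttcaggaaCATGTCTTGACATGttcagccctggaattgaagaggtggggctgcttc
A match is a description of the letters and shows no binding.

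Eda2r (chrX:97333840-97377216), a tumour necrosis factor receptor family member, was at 0.745, 1.52, 0.806, 0.564 and 0.976 CPM in vehicle and between 35.5 and 61.0 CPM (median 55.5) in cotreated kidneys, with no overlap (log2 fold change 5.80, SE 0.23, adjusted p = 7.50e-16). Zfp365 (chr10:67886103-67912662), a zinc finger gene involved in genome stability, had 2 to 7 reads per vehicle library and 244 to 472 per cotreated library (log2 fold change 5.98, SE 0.31, adjusted p = 1.59e-15). Bax, the mitochondrial pore-forming death protein, was at 23.8 to 28.3 CPM in vehicle and 77.0 to 107 CPM in cotreated kidneys (log2 fold change 1.80, SE 0.07, adjusted p = 2.42e-15), and it was higher than with cisplatin alone (log2 difference 0.22, SE 0.06, adjusted p = 0.0056). The anti-apoptotic gene Bcl2, outside the list, fell (log2 fold change -0.45, SE 0.07, adjusted p = 1.45e-05; -0.29 with library size scaling). Against the rest of the list, Rrm2b, a ribonucleotide reductase subunit, was at 34.3, 36.2, 40.5, 35.8 and 41.2 CPM in vehicle and between 24.4 and 33.2 CPM (median 27.7) in cotreated kidneys (log2 fold change -0.42, SE 0.07, adjusted p = 2.66e-05; -0.26 with library size scaling). The damage-recognition gene Xpc was at vehicle level (log2 fold change -0.05, SE 0.05, equivalence adjusted p = 1.01e-07), and so was the stress gene Sesn1 (log2 fold change 0.16, SE 0.10, equivalence adjusted p = 0.00375), while Sesn1 lay at 26.6 to 35.2 CPM with cisplatin alone against 17.6 to 27.5 CPM with cotreatment.

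Tubular injury genes remained raised as a group, with 25 of 28 rising (16 called) and 1 falling, at a median log2 fold change of 1.43 beside 2.17 for cisplatin alone. Havcr1 (chr11:46735080-46779578), which encodes the injury marker KIM-1, was at 2.98, 1.64, 2.12, 2.11 and 1.63 CPM in vehicle and between 61.8 and 319.9 CPM (median 172) in cotreated kidneys. The lowest cotreated library was thus far above the highest vehicle library (log2 fold change 6.45, SE 0.36, adjusted p = 3.73e-12), and all cisplatin libraries were higher still, at 505 to 745 CPM. Lcn2 (chr2:32384633-32388252), the iron-carrier-binding protein NGAL, was at 3.24, 3.65, 4.91, 3.63 and 4.10 CPM in vehicle and between 237 and 333 CPM (median 296) in cotreated kidneys (log2 fold change 6.21, SE 0.26, adjusted p = 1.43e-13), against 539.5 to 1482 CPM with cisplatin. Krt20, an epithelial keratin, was at 1.78, 1.28, 0.605, 1.16 and 0.456 CPM in vehicle and between 30.9 and 76.1 CPM (median 43.7) in cotreated kidneys (log2 fold change 5.60, SE 0.35, adjusted p = 2.24e-12). In contrast, Ccnd1, the G1 cyclin D1, fell (log2 fold change -0.84, SE 0.20, adjusted p = 0.00116), although the highest cotreated library touched the lowest vehicle library, 222 CPM in both, and the change with the number series as a covariate was -0.54, adjusted p = 0.0271. The integrin genes Itgav and Itgb6 were at vehicle level, Itgav with a small rise (log2 fold change 0.38, SE 0.05, adjusted p = 5.88e-07; equivalence adjusted p = 0.0292) and Itgb6 with wide groups (log2 fold change -0.06, SE 0.19, equivalence adjusted p = 0.0386). That label did not hold in other settings. No gene of the list was at vehicle level within the 500s series, with the fat covariate or with library size scaling. With the number series as a covariate, 1 was.

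Immediate early genes, mostly transcription factors and phosphatases that switch on within minutes of a stimulus, rose almost throughout. Of 34 genes, 32 were tested, 29 rose (25 called), none fell and none was at vehicle level, with a median of 1.75 against 2.13 for cisplatin alone. Egr1 was at 7.42, 8.26, 4.44, 9.76 and 12.6 CPM in vehicle and between 46.1 and 258 CPM (median 169) in cotreated kidneys (log2 fold change 4.18, SE 0.35, adjusted p = 6.76e-09). Its cotreated libraries spread more than 5-fold but did not reach the vehicle range. Fosl1, a FOS family member, had 0 to 6 reads per vehicle library and 122 to 328 reads per cotreated library (adjusted p = 5.44e-11), so no fold change is given. Egr2 also rose (log2 fold change 4.12, SE 0.39, adjusted p = 1.10e-09).

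Cytokine and NF-kB genes were raised less evenly. Of 43 genes, 38 were tested, 28 rose (17 called) and 2 fell, with a median of 0.88 beside 1.23 for cisplatin alone. Lif (chr11:4257557-4272514), an interleukin 6 family cytokine, was at 0.842, 0.642, 0.571, 0.599 and 0.488 CPM in vehicle and between 13.2 and 29.3 CPM (median 15.9) in cotreated kidneys (log2 fold change 4.89, SE 0.28, adjusted p = 3.90e-13). Socs3, the feedback inhibitor of that pathway, rose with it (log2 fold change 3.14, SE 0.27, adjusted p = 2.75e-09). Il6 itself was barely sequenced, with 0 to 2 reads per vehicle library and 2 to 29 per cotreated library (adjusted p = 0.0017). Tnf had 4 to 13 reads in vehicle and 3 to 23 in cotreated libraries, and neither test passed (adjusted p = 0.282; equivalence adjusted p = 0.753), although it rose with the KW6002 mice as the reference (1.36, adjusted p = 0.00544) and with the fat covariate (1.38, adjusted p = 0.0108). Il1b likewise passed neither (log2 fold change -0.54, SE 0.36, adjusted p = 0.202; equivalence adjusted p = 0.822). The adaptor gene Traf1 fell (log2 fold change -0.69, SE 0.16, adjusted p = 7.40e-04), a call lost within the 500s series (-0.29, adjusted p = 0.236), whereas Nfkb1 and Tnip1, a subunit and an inhibitor of NF-kB signalling, were at vehicle level, with log2 fold changes of 0.27 (SE 0.06, equivalence adjusted p = 9.72e-04) and 0.15 (SE 0.08, equivalence adjusted p = 2.84e-04).

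Chemokines split into rising and falling members. Of 32, 25 were tested, 11 rose, 6 fell and 1 was at vehicle level, at a median of 0.12. That median was 0.43 within the 500s series, 0.51 with the number series as a covariate, 0.31 with the KW6002 mice as the reference and 0.90 with the fat covariate, where 12 rose and 4 fell. Cxcl1 (chr5:90891241-90893115), a neutrophil attractant, was at 0.874, 0.682, 0.202, 0.634 and 0.586 CPM in vehicle and between 24.9 and 39.2 CPM (median 31.5) in cotreated kidneys (log2 fold change 5.72, SE 0.28, adjusted p = 1.52e-14), near the 29.7 to 46.2 CPM of cisplatin alone (log2 difference -0.36, SE 0.16, adjusted p = 0.0526). Cxcl2 had 1 to 3 reads per vehicle library and 54 to 106 per cotreated library (adjusted p = 1.82e-08). Cxcl10, an interferon-induced attractant of T cells, was at 2.08 to 3.50 CPM in vehicle and 11.6 to 17.1 CPM in cotreated kidneys (log2 fold change 2.42, SE 0.19, adjusted p = 6.51e-10), above the 7.79 to 8.31 CPM of cisplatin alone (log2 difference 0.90, SE 0.18, adjusted p = 1.70e-04). In contrast, Cxcl9, a related gene made by macrophages and other cells, was at 3.21, 2.33, 1.28, 1.76 and 1.89 CPM in vehicle and between 0 and 1.09 CPM (median 0.180) in cotreated kidneys (log2 fold change -2.67, SE 0.53, adjusted p = 1.16e-04). Ccl2, the monocyte attractant, rose with overlapping groups (log2 fold change 1.52, SE 0.43, adjusted p = 0.00339), and Cxcl12 was at vehicle level (log2 fold change -0.10, SE 0.14, equivalence adjusted p = 0.011).

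Complement and acute phase genes rose more often than they fell, in numbers that depended on the setting. Of 36 tested genes of 39, 15 rose, 3 fell, 5 were at vehicle level and 13 passed neither test, at a median of 0.34. Within the 500s series 21 rose and 2 fell at a median of 0.92. With the number series as a covariate 18 rose and 3 fell at a median of 0.70, and with the fat covariate 22 rose and 2 fell at a median of 1.08. Fgb, the fibrinogen beta chain, was at 2.14, 2.08, 2.18, 2.25 and 1.43 CPM in vehicle and between 19.0 and 63.8 CPM (median 42.9) in cotreated kidneys (log2 fold change 4.44, SE 0.34, adjusted p = 2.18e-10). C3, the central complement protein, was at 155, 205, 57.3, 96.7 and 83.9 CPM in vehicle and between 427 and 1295 CPM (median 557) in cotreated kidneys (log2 fold change 2.505, SE 0.33, adjusted p = 2.91e-06), where the highest library, replicate 3, stood apart from the other 5. Orm1, an acute phase glycoprotein, fell, lying at 0.944 to 8.54 CPM in vehicle and 0.0627 to 1.95 CPM in cotreated kidneys (log2 fold change -2.54, SE 0.65, adjusted p = 0.00185) with overlapping groups. The call of Orm1 was lost within the 500s series (-1.49, adjusted p = 0.0665), with the fat covariate (-0.12, adjusted p = 0.782) and with the KW6002 mice as the reference (-1.01, adjusted p = 0.193). The complement regulator Cd59a (log2 fold change -0.05, SE 0.08, equivalence adjusted p = 4.14e-05) and the protease gene C1s1 (log2 fold change -0.15, SE 0.15, equivalence adjusted p = 0.0381) were at vehicle level. Selp, the endothelial adhesion gene P-selectin, rose (log2 fold change 0.85, SE 0.32, adjusted p = 0.0256) with groups that overlapped, and its call was lost with the fat covariate (0.97, adjusted p = 0.0709) and without cotreated replicate 5 or vehicle replicate 3, 4 or 5 (log2 fold change 0.70 to 0.76, adjusted p = 0.0622 to 0.076).

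Among NRF2 targets, the genes that handle oxidants and electrophiles, 30 of 39 tested (of 40 listed) rose (17 called) and 1 fell, with a median of 0.87 beside 1.34 for cisplatin alone. Cbr3 (chr16:93683215-93690990), a carbonyl reductase, was at 1.49, 2.04, 1.28, 1.303 and 1.27 CPM in vehicle and between 41.0 and 94.8 CPM (median 67.3) in cotreated kidneys (log2 fold change 5.49, SE 0.23, adjusted p = 5.25e-15). Its neighbour in function Cbr1 rose, lying at 37.3 to 41.2 CPM in vehicle and 322 to 459 CPM in cotreated kidneys (log2 fold change 3.34, SE 0.09, adjusted p = 2.41e-17). Gsta1, a glutathione transferase whose reads can be shared with near-identical Gsta genes, had 2 to 7 reads per vehicle library and 366 to 1130 per cotreated library (log2 fold change 7.36, SE 0.57, adjusted p = 7.89e-14). Nfe2l2, the gene of NRF2 itself, was at 109.8, 113, 111, 109.8 and 134 CPM in vehicle and between 185 and 219 CPM (median 200.4) in cotreated kidneys (log2 fold change 0.80, SE 0.06, adjusted p = 1.29e-10). Against the list, malic enzyme Me1 fell, lying at 299.6 to 359 CPM in vehicle and 121 to 163 CPM in cotreated kidneys (log2 fold change -1.28, SE 0.07, adjusted p = 2.52e-12). Gclm, of glutathione synthesis (log2 fold change 0.11, SE 0.07, equivalence adjusted p = 4.55e-05), and transketolase Tkt (log2 fold change 0.02, SE 0.08, equivalence adjusted p = 1.76e-05) were at vehicle level, while Hmox1, heme oxygenase 1, passed neither test (log2 fold change 0.12, SE 0.23, adjusted p = 0.667; equivalence adjusted p = 0.119) with vehicle values of 58.8, 72.4, 47.8, 96.6 and 171 CPM. With the KW6002 mice as the reference it rose (0.70, adjusted p = 0.00865). Without the highest of these vehicle values, vehicle replicate 5, it rose (log2 fold change 0.50, adjusted p = 0.0191).

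The classical antioxidant enzymes behaved unlike the NRF2 list by these counts: of 28, 3 rose and 16 fell, none was called, and 16 were at vehicle level (57.1% against 41.2% of all genes). Scaled by library size, 6 rose and 11 fell. Within the 500s series 10 of the 28 were at vehicle level, beside 5958 of 17116 genes. Catalase, Cat, fell by a small step that was not detected with library size scaling (-0.06, adjusted p = 0.252), from 1294, 1330, 1336, 1331 and 1320 CPM in vehicle to between 1065 and 1236 CPM (median 1107) (log2 fold change -0.22, SE 0.05, adjusted p = 0.00136), and lay within the bound (equivalence adjusted p = 9.09e-05). Gpx3, the secreted glutathione peroxidase, was at vehicle level (log2 fold change -0.08, SE 0.07, equivalence adjusted p = 2.66e-05). Ggt1, which starts the recycling of glutathione at the brush border, was at 1294 to 1402 CPM in vehicle and 739 to 887 CPM in cotreated kidneys (log2 fold change -0.77, SE 0.10, adjusted p = 1.23e-06), above the 183 to 364 CPM of cisplatin alone. Of the metal genes, 11 of 31 tested rose and 9 fell; the metal-binding metallothioneins Mt2 (log2 fold change 3.39, SE 0.28, adjusted p = 4.78e-09) and Mt1 (log2 fold change 2.49, SE 0.18, adjusted p = 4.13e-10) rose, Mt1 from 52.98, 57.4, 44.6, 60.2 and 61.2 CPM to between 238 and 382 CPM (median 323). Alas1, the first enzyme of heme synthesis, rose, lying at 134 to 179 CPM in vehicle and 438 to 561 CPM in cotreated kidneys (log2 fold change 1.66, SE 0.09, adjusted p = 2.88e-12).

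Genes of detoxification by cytochromes P450 and conjugating enzymes moved strongly in both directions, 19 of 45 tested rising and 21 falling with 6 at vehicle level. Cyp2d12 fell, lying at 51.8 to 132 CPM in vehicle and 1.51 to 8.39 CPM in cotreated kidneys (log2 fold change -4.39, SE 0.36, adjusted p = 1.50e-09), and so did Cyp2j13 (log2 fold change -2.38, SE 0.29, adjusted p = 3.84e-07). The glucuronosyltransferase Ugt2b37 was at 41.4 to 83.0 CPM in vehicle and 7.12 to 15.5 CPM in cotreated kidneys (log2 fold change -2.54, SE 0.28, adjusted p = 7.99e-08). Ugt2b35 had 0 to 1 reads per vehicle library and 30 to 184 per cotreated library (adjusted p = 1.33e-07). The Ugt2b and Cyp2 genes have close relatives, and reads could be split between them. Por, the electron donor of the cytochromes, was at vehicle level (log2 fold change 0.01, SE 0.06, equivalence adjusted p = 4.17e-07), as was Ugt1a7c (log2 fold change -0.07, SE 0.06, equivalence adjusted p = 1.15e-06).

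**Figure D2:**
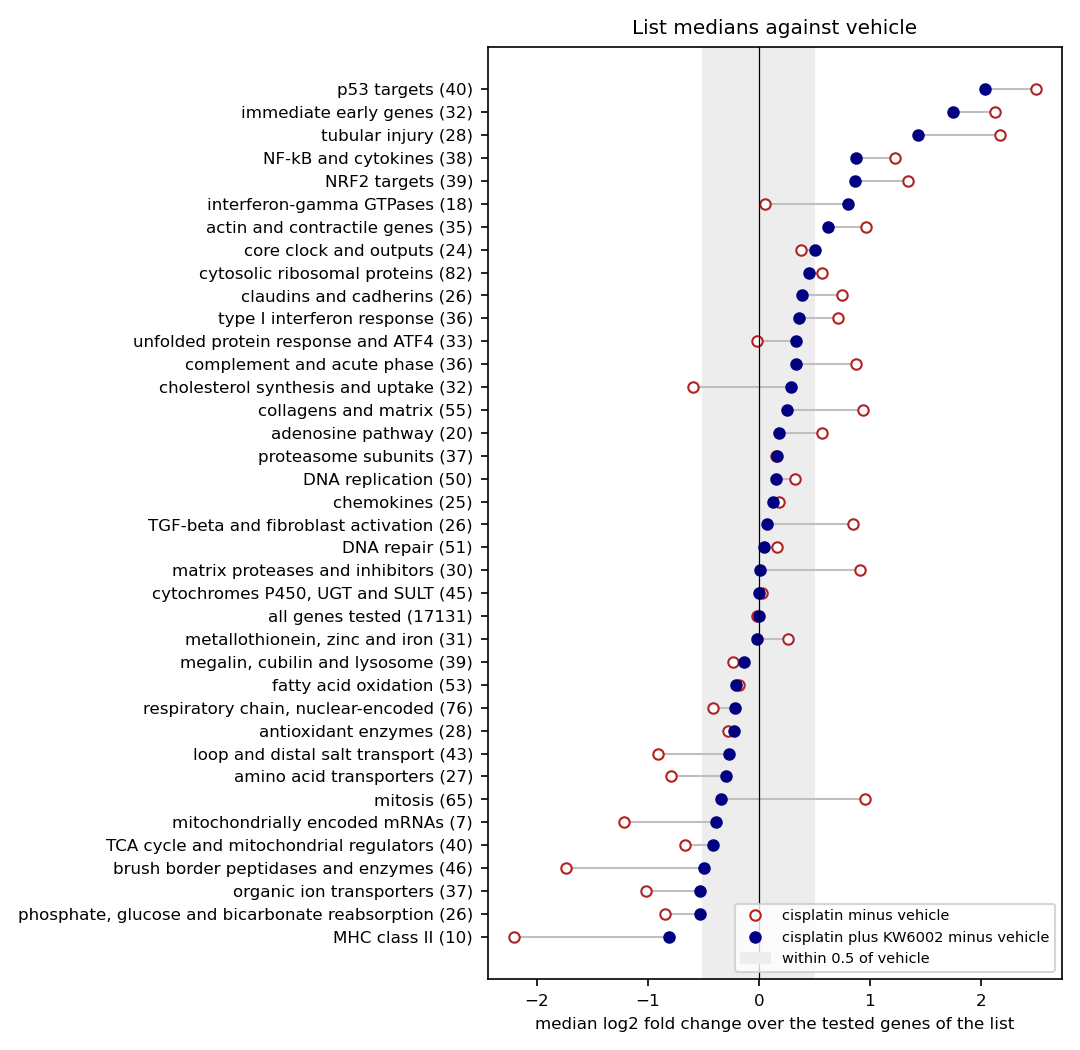
Median log2 fold change against vehicle (x axis, log2 scale) of each list (y axis), filled points for cisplatin plus KW6002 and open points for cisplatin alone, both against the same 5 vehicle libraries; the grey band marks the bound of 0.5 in each direction. The filled points of p53 targets (2.04), immediate early genes (1.75) and tubular injury genes (1.43) lie far to the right of the band, and those of the respiratory chain (-0.21) and proteasome (0.16) lie inside it.

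Transport genes of the proximal tubule, the segment that reabsorbs most filtrate, stayed low in part. Of the organic ion transporters, 37 tested, 8 rose, 21 fell (8 called) and 5 were at vehicle level, with a median of -0.53 beside -1.01 for cisplatin alone. Slc22a28 (chr19:8062209-8131982), an organic anion transporter family gene, was at 87.9, 76.8, 81.8, 85.2 and 73.0 CPM in vehicle and between 2.32 and 6.73 CPM (median 3.06) in cotreated kidneys (log2 fold change -4.38, SE 0.22, adjusted p = 3.71e-13), and its close relative Slc22a30 fell as well (log2 fold change -3.71, SE 0.24, adjusted p = 2.73e-11). Slco1a1 fell from 135, 176, 201, 234 and 166 CPM to between 7.47 and 14.4 CPM (median 10.6) (log2 fold change -4.06, SE 0.28, adjusted p = 1.15e-10). Cisplatin libraries were lower yet at all of these, with Slco1a1 at 0.559 to 4.70 CPM. Slc47a1, the MATE1 transporter that extrudes organic cations into urine, was at 752, 767, 771, 796 and 797 CPM in vehicle and between 399.7 and 518 CPM (median 472) in cotreated kidneys (log2 fold change -0.73, SE 0.08, adjusted p = 2.83e-08). Slc22a23 was at vehicle level (log2 fold change -0.10, SE 0.13, equivalence adjusted p = 0.00755). Slco4a1 rose (log2 fold change 1.41, SE 0.28, adjusted p = 2.06e-04), a call lost with the KW6002 mice as the reference (0.42, adjusted p = 0.174). Abcc2, the efflux pump MRP2 of the apical membrane, rose from 589.7, 593, 659, 688 and 666 CPM to between 1128 and 1764 CPM (median 1553) (log2 fold change 1.25, SE 0.10, adjusted p = 6.90e-10), beyond its level with cisplatin alone (log2 difference 0.45, SE 0.10, adjusted p = 6.14e-04).

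Among amino acid transporters, 14 of 27 fell, 8 rose and 4 were at vehicle level. Slc7a13 (chr4:19818725-19842218) fell from 666, 710.4, 976, 966 and 1003 CPM to between 22.8 and 86.7 CPM (median 42.0) (log2 fold change -4.11, SE 0.24, adjusted p = 1.52e-11), and Slc6a20b, an imino acid transporter, averaged 309.5 ± 18.5 CPM (SD, n = 5) in vehicle and 89.2 ± 21.9 CPM (SD, n = 6) in cotreated kidneys (log2 fold change -1.80, SE 0.13, adjusted p = 1.80e-10). Slc36a2 fell with overlapping groups (log2 fold change -2.11, SE 0.62, adjusted p = 0.00594), and with the fat covariate its change was 0.13 (adjusted p = 0.746). The call was also lost within the 500s series (-1.17, adjusted p = 0.128) and with the KW6002 mice as the reference (-1.31, adjusted p = 0.071). The glutamine transporter Slc38a3 rose, lying at 52.4 to 80.4 CPM in vehicle and 200.2 to 322 CPM in cotreated kidneys (log2 fold change 2.06, SE 0.14, adjusted p = 1.03e-10). Slc43a2 (log2 fold change -0.11, SE 0.07, equivalence adjusted p = 4.29e-05) and Slc1a1 (log2 fold change -0.25, SE 0.07, equivalence adjusted p = 0.00309) were at vehicle level.

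In the list of phosphate, glucose and bicarbonate reabsorption, 16 of 26 fell (8 called), 6 rose and 5 were at vehicle level, at a median of -0.53 (-0.31 within the 500s series). Slc34a3, a sodium-phosphate cotransporter, was at 107, 97.2, 82.4, 80.2 and 79.5 CPM in vehicle and between 13.5 and 35.2 CPM (median 22.2) in cotreated kidneys (log2 fold change -1.996, SE 0.22, adjusted p = 6.79e-08), compared with 0.479 to 3.06 CPM under cisplatin alone. Car14, a membrane carbonic anhydrase (log2 fold change -1.81, SE 0.21, adjusted p = 2.35e-07), and Slc5a8, a sodium-coupled monocarboxylate transporter (log2 fold change -1.80, SE 0.21, adjusted p = 1.71e-07), also fell without overlap. The water channel Aqp1 was at vehicle level (log2 fold change 0.10, SE 0.12, equivalence adjusted p = 0.00531), with 1201, 1095, 1595, 1382 and 1493 CPM in vehicle and between 1312 and 1812 CPM (median 1404) in cotreated kidneys, while all cisplatin libraries were at 618 to 929 CPM. Cldn2, the leaky claudin of the proximal tubule, fell to a small extent and lay just within the bound (log2 fold change -0.36, SE 0.06, adjusted p = 5.02e-05; equivalence adjusted p = 0.0485).

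Brush border and metabolic enzyme genes of the same cells fell widely but mostly by modest steps: 33 of 46 tested fell, 12 of them called, 3 rose and 8 were at vehicle level, at a median of -0.50 beside -1.74 for cisplatin alone. Kap (chr6:133849851-133853762), the androgen-regulated kidney protein, was at 18160, 18930, 20470, 22780 and 19290 CPM in vehicle and between 486 and 2530 CPM (median 690.3) in cotreated kidneys (log2 fold change -4.29, SE 0.29, adjusted p = 1.72e-10). Here the highest value was cotreated replicate 6, the library with adrenal RNA, and the other 5 were at or below 1116 CPM. Gatm, the first enzyme of creatine synthesis, fell from 970.1, 898, 769, 911 and 877 CPM to between 141 and 195 CPM (median 167) (log2 fold change -2.39, SE 0.10, adjusted p = 3.95e-14). Ido2, of tryptophan breakdown, fell too (log2 fold change -2.69, SE 0.20, adjusted p = 1.82e-10), to below its level with cisplatin (log2 difference -0.53, SE 0.21, adjusted p = 0.0369). Gldc, of the glycine cleavage system, was called higher, at 210.4 to 266 CPM in vehicle and 702 to 1174 CPM in cotreated kidneys (log2 fold change 1.91, SE 0.15, adjusted p = 9.18e-10). By contrast, Hnf4a (chr2:163506808-163572910), the transcription factor that maintains proximal tubule identity, was at vehicle level: 994, 935, 943, 1025 and 1015 CPM in vehicle and between 896 and 1051 CPM (median 976) in cotreated kidneys (log2 fold change -0.02, SE 0.06, equivalence adjusted p = 4.80e-07), with 595 to 720.1 CPM under cisplatin alone. Fah, of tyrosine breakdown (log2 fold change 0.03, SE 0.07, equivalence adjusted p = 2.71e-06), was also at vehicle level, whereas Lhx1, another kidney transcription factor, fell, lying at 32.0 to 38.2 CPM in vehicle and 15.2 to 19.9 CPM in cotreated kidneys (log2 fold change -1.004, SE 0.10, adjusted p = 9.77e-09).

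Salt transport genes of the distal nephron also stayed low in part. Of 43 genes of loop and distal salt transport, 23 fell (10 called), 8 rose and 11 were at vehicle level, with a median of -0.27 (-0.41 within the 500s series and -0.44 with the fat covariate). Library size scaling gave 20 falling, 11 rising and 14 at vehicle level, at a median of -0.11. Slc12a3 (chr8:94329201-94366214), the thiazide-sensitive sodium chloride cotransporter of the distal convoluted tubule, was at 1605, 1603, 1553, 1612 and 1610 CPM in vehicle and between 147 and 370.0 CPM (median 232) in cotreated kidneys (log2 fold change -2.71, SE 0.19, adjusted p = 1.10e-10). Pvalb, the calcium buffer of the same cells, fell from 20.5, 19.4, 17.6, 17.5 and 17.7 CPM to between 0.157 and 0.576 CPM (median 0.273) (log2 fold change -5.80, SE 0.26, adjusted p = 2.92e-15). Egf, made in the thick ascending limb and distal tubule, fell from 1890, 2146, 2627, 2972 and 3058 CPM to between 199.7 and 533.9 CPM (median 222) (log2 fold change -3.02, SE 0.23, adjusted p = 5.86e-10). Cisplatin libraries were lower again, with Slc12a3 at 34.5 to 80.3 CPM and Egf at 59.0 to 96.6 CPM. The summed level of 6 distal convoluted tubule markers was 2375 to 2651 CPM in vehicle and 561 to 850 CPM in cotreated kidneys, while the sum of 7 principal cell markers was 442 to 717 CPM and 578 to 961 CPM. Sgk1, a kinase induced by aldosterone and glucocorticoids, rose from 92.8, 49.6, 148, 94.5 and 79.2 CPM to between 358 and 517 CPM (median 487) (log2 fold change 2.32, SE 0.23, adjusted p = 5.30e-08); KW6002 alone had a log2 change of 1.15, SE 0.23, adjusted p = 0.0814 at this gene, and against the KW6002 mice the rise was 1.17, adjusted p = 1.18e-04. The sodium pump subunit Atp1b1 was at vehicle level (log2 fold change -0.15, SE 0.08, equivalence adjusted p = 2.77e-04).

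Epithelial junction genes moved in both directions, with 14 of 26 rising, 7 falling and 9 at vehicle level, of which 3 also passed the test for a rise and 3 that for a fall. Their median was 0.39, but 0.22 within the 500s series, 0.26 with the number series as a covariate, 0.25 with the fat covariate and 0.18 with the KW6002 mice as the reference. Cldn4, a claudin of the distal tubule and collecting duct, was at 21.7, 20.2, 17.5, 18.9 and 18.6 CPM in vehicle and between 74.5 and 95.0 CPM (median 87.3) in cotreated kidneys (log2 fold change 2.15, SE 0.11, adjusted p = 5.05e-13). Cdh3, P-cadherin, rose (log2 fold change 1.25, SE 0.10, adjusted p = 1.26e-09), and so did Cldn23 (log2 fold change 1.93, SE 0.35, adjusted p = 2.64e-05) at under 2 CPM. Cdh16, the kidney-specific cadherin, fell, lying at 1210 to 1273 CPM in vehicle and 695 to 847 CPM in cotreated kidneys (log2 fold change -0.72, SE 0.05, adjusted p = 5.41e-11), and Cdh1, E-cadherin (log2 fold change 0.17, SE 0.06, equivalence adjusted p = 6.64e-05), and Tjp1 (log2 fold change 0.33, SE 0.05, equivalence adjusted p = 0.00335) were at vehicle level. The list of actin and contractile genes, which also holds tubulin genes, rose in 30 of 35 with a median of 0.63. Its largest rises were those of the tubulin genes Tubb6 (log2 fold change 1.99, SE 0.19, adjusted p = 1.61e-08), Tubb2a (log2 fold change 1.58, SE 0.11, adjusted p = 5.66e-11) and Tubb2b (log2 fold change 1.42, SE 0.13, adjusted p = 3.35e-09). Tln1, talin 1, was the only member that fell (log2 fold change -0.54, SE 0.06, adjusted p = 3.92e-08), and Actn4 (log2 fold change 0.29, SE 0.05, equivalence adjusted p = 0.00138) was within the bound.

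**Figure D3:**
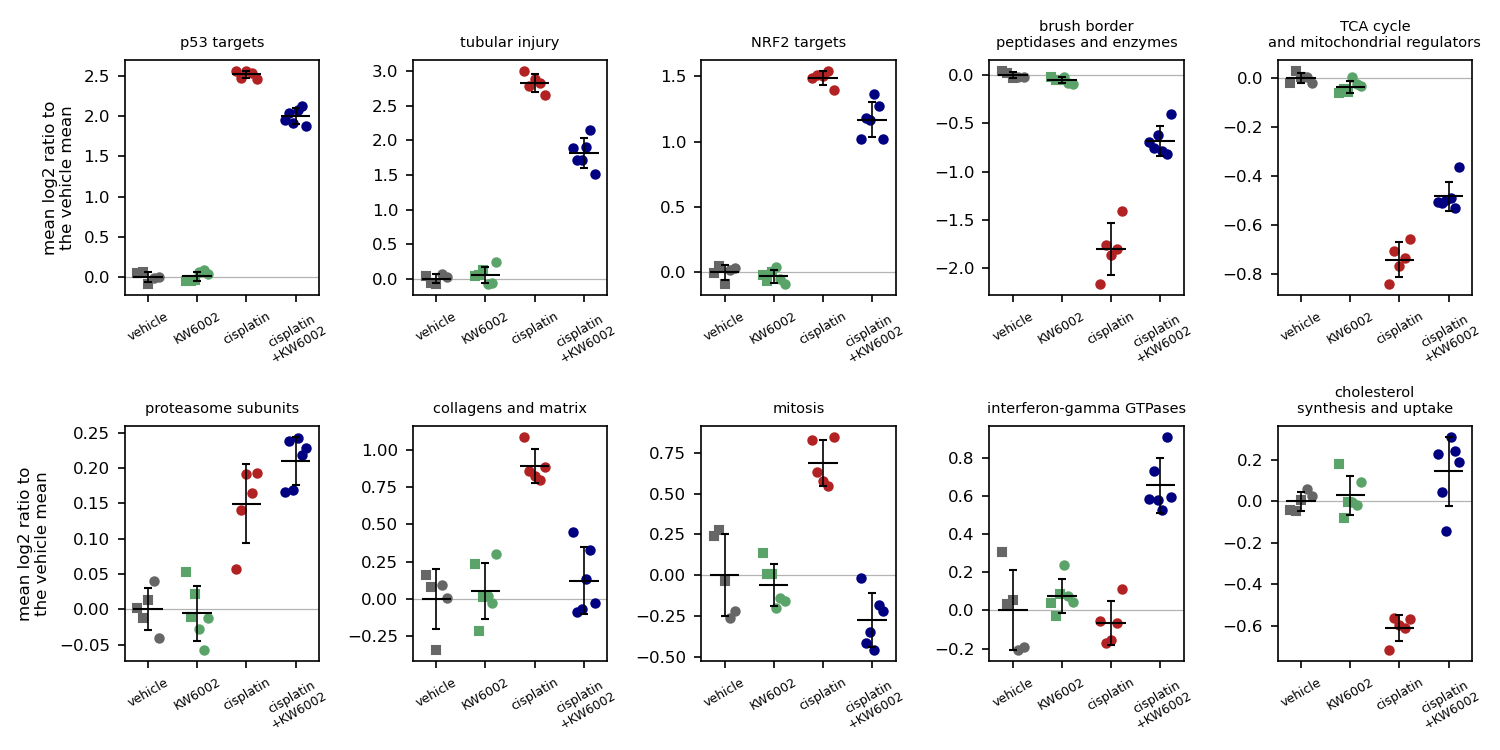
Mean log2 ratio to the vehicle mean over the tested genes of 10 lists (y axis, log2 scale), 1 point per mouse in vehicle (n = 5), KW6002 (n = 6), cisplatin (n = 5) and cisplatin plus KW6002 (n = 6); squares are sample numbers in the 300s, circles those in the 500s, bars the group mean and error bars the SD. The mean over p53 targets was 1.87 to 2.13 in cotreated mice and -0.09 to 0.06 in vehicle mice, and the mitosis list separates the 300s from the 500s within vehicle.

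Mitochondrial genes were reduced by small amounts. Of 76 nuclear-encoded subunits of the respiratory chain, 46 fell and 3 rose, but none was called and 52 (68.4%) were at vehicle level, at a median of -0.21 beside -0.42 for cisplatin alone. Scaled by library size, 24 fell and 12 rose. Cox4i1 (log2 fold change -0.09, SE 0.07, equivalence adjusted p = 2.86e-05) and Atp5g3 (log2 fold change -0.21, SE 0.07, equivalence adjusted p = 4.02e-04), of complex IV and the ATP synthase, were within the bound. Ndufs1, the largest complex I subunit, fell from 382, 397, 408, 402 and 387 CPM to between 212 and 266 CPM (median 221) (log2 fold change -0.79, SE 0.06, adjusted p = 7.13e-11). Sdha of complex II (log2 fold change -0.69, SE 0.05, adjusted p = 2.32e-10) and Cox7a1 of complex IV (log2 fold change -0.84, SE 0.13, adjusted p = 9.87e-06) also fell without overlap, whereas Cox8a lay within the bound with a small rise (log2 fold change 0.28, SE 0.09, adjusted p = 0.0084) and overlapping groups, not detected within the 500s series (0.12, adjusted p = 0.392), with either covariate or against the KW6002 mice (0.16, adjusted p = 0.101). Among the mRNAs of mitochondrial DNA, 7 tested, 5 fell and 1 rose: mt-Nd4 was at 9231, 9801, 9686, 8695 and 8726 CPM in vehicle and between 4780 and 5208 CPM (median 4944) in cotreated kidneys (log2 fold change -0.89, SE 0.07, adjusted p = 7.99e-10), and mt-Cytb fell by a like amount (log2 fold change -0.89, SE 0.09, adjusted p = 9.67e-09). The complex I gene mt-Nd1, on the same mitochondrial genome, was within the bound with a small rise that was not detected within the 500s series (0.17, adjusted p = 0.281) or without cotreated replicate 6 or vehicle replicate 1 (log2 fold change 0.23, SE 0.08, adjusted p = 0.0219; equivalence adjusted p = 0.0067), and mt-Co1 with a small fall (log2 fold change -0.23, SE 0.08, adjusted p = 0.0132; -0.24, adjusted p = 0.0926 within the 500s series).

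Genes of the citric acid cycle and its regulators fell in 35 of 40, with 16 at vehicle level and a median of -0.41. Ppargc1b, a coactivator of mitochondrial genes, was called lower, at 17.0, 19.1, 15.2, 14.3 and 17.2 CPM in vehicle and between 7.15 and 9.48 CPM (median 7.35) in cotreated kidneys (log2 fold change -1.06, SE 0.09, adjusted p = 2.32e-09). Pcx, pyruvate carboxylase, was called lower as well (log2 fold change -1.01, SE 0.09, adjusted p = 3.89e-09). Citrate synthase Cs (log2 fold change -0.30, SE 0.05, equivalence adjusted p = 0.00114) and Mdh2 (log2 fold change -0.24, SE 0.05, equivalence adjusted p = 1.76e-04) were within the bound, and Idh1 rose with overlapping groups (log2 fold change 0.37, SE 0.08, adjusted p = 6.82e-04).

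Fatty acid oxidation genes gave 12 rising and 25 falling of 53, with 19 at vehicle level. The medium-chain acyl-CoA synthetase genes Acsm3 (log2 fold change -3.54, SE 0.25, adjusted p = 2.40e-10), Acsm1 (log2 fold change -2.49, SE 0.14, adjusted p = 1.85e-12) and Acsm2 (log2 fold change -2.36, SE 0.22, adjusted p = 7.95e-09) fell the most; these are close paralogs on chromosome 7. Acsm2 was at 5455, 5729, 5325, 5775 and 5294 CPM in vehicle and between 823 and 1442 CPM (median 965) in cotreated kidneys. Cyp4a14, a fatty acid omega-hydroxylase induced by PPAR-alpha, was at 792, 726, 587, 487 and 834 CPM in vehicle and between 2743 and 4059 CPM (median 3357) in cotreated kidneys (log2 fold change 2.34, SE 0.18, adjusted p = 9.51e-10), beside a log2 fold change of 2.36 with cisplatin alone. Cpt1a, the rate-setting gene of the mitochondrial pathway, was at vehicle level (log2 fold change -0.15, SE 0.08, equivalence adjusted p = 6.79e-04).

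Globin and Alas2 mRNAs were almost gone from the cotreated libraries. The red cell marker list summed to 138.5 to 461 CPM in vehicle, 23.9 to 43.7 CPM in cotreated and 4.69 to 16.6 CPM in cisplatin kidneys. All 6 of its tested members fell, 5 of them called. Hbb-bs, adult beta globin, had 1153 to 6007 reads per vehicle library and 1 to 9 per cotreated library. The alpha globin Hba-a1 had 274 to 1566 reads per vehicle library and 0 to 4 per cotreated library. Hba-a2 had 172 to 983 and 0 to 3, and Hbb-bt 167 to 1135 and 0 to 2. The adjusted p-values were 1.06e-10 for Hbb-bs, 3.37e-10 for Hba-a1, 2.01e-09 for Hba-a2 and 4.02e-09 for Hbb-bt. Alas2, the erythroid heme synthesis enzyme, had 87 to 479 reads in vehicle and 1 to 9 in cotreated libraries (adjusted p = 2.40e-08). At such counts no fold change is given, and the globin copies share reads. The groups did not overlap at any of these genes, as at 6417 of the 17131 genes tested, and the cisplatin libraries were as low, with Hbb-bs at 0.0267 to 0.126 CPM. Far lower, too, were Pzp, a protease inhibitor of the alpha-2-macroglobulin family (log2 fold change -6.28, SE 0.29, adjusted p = 4.13e-14), Pde6a, a phosphodiesterase subunit (log2 fold change -5.47, SE 0.24, adjusted p = 8.31e-15), and the unnamed transcript Gm6300, with 185 to 570 reads per vehicle library and 1 to 5 per cotreated library.

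MHC class II genes, which present antigen to T cells, remained low: 6 of 10 tested fell, 4 of them called, and 2 rose, at a median of -0.81 beside -2.21 for cisplatin alone (-0.52 within the 500s series). H2-Aa was at 101.7, 91.4, 91.8, 67.2 and 61.4 CPM in vehicle and between 24.1 and 53.5 CPM (median 29.1) in cotreated kidneys (log2 fold change -1.300, SE 0.19, adjusted p = 2.99e-06). H2-Ob fell (log2 fold change -2.17, SE 0.33, adjusted p = 4.49e-06), H2-Oa had 10 to 29 reads in vehicle and 1 to 7 in cotreated libraries (adjusted p = 2.42e-04), and H2-DMb2 rose with overlapping groups (log2 fold change 0.83, SE 0.31, adjusted p = 0.0253), a call lost within the 500s series (0.95, adjusted p = 0.0816), with the number series as a covariate (0.63, adjusted p = 0.152), with the KW6002 mice as the reference (0.55, adjusted p = 0.105), and without cotreated replicate 1 or 3 or vehicle replicate 2 or 4 (log2 fold change 0.66 to 0.77, adjusted p = 0.0514 to 0.0734). The summed B cell markers were 10.3 to 39.9 CPM in vehicle and 3.95 to 18.9 CPM in cotreated kidneys. The macrophage markers summed to 213.7 to 533.7 CPM in vehicle and 168.2 to 278.2 CPM in cotreated kidneys, with overlapping groups. Of the 12 macrophage markers, 4 fell (3 called), 1 rose and 7 passed neither test. The T cell markers summed to 6.14 to 9.68 CPM in vehicle and 4.12 to 6.47 CPM in cotreated kidneys. The part of any of these cells in the MHC class II result was not tested. Tap1, the peptide transporter of the class I pathway, rose from 16.4, 16.1, 12.1, 10.5 and 8.85 CPM to between 39.6 and 54.9 CPM (median 44.0) (log2 fold change 1.83, SE 0.12, adjusted p = 4.29e-11), and B2m, the class I light chain, was at vehicle level (log2 fold change -0.05, SE 0.09, equivalence adjusted p = 1.68e-04). Tap1 overlaps Psmb9 on the opposite strand.

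Proteasome genes were mostly at vehicle level, 29 of 37 tested (78.4% against 41.2% of all genes). Small rises were still detectable, since 23 passed the test for a rise, at a median of 0.16. Scaled by library size, 33 rose at a median of 0.32 and 23 were at vehicle level. Psmc3 (log2 fold change 0.05, SE 0.05, equivalence adjusted p = 2.65e-07) and Psmd2 (log2 fold change -0.02, SE 0.04, equivalence adjusted p = 2.25e-09), subunits of the regulatory particle, were at vehicle level. The exceptions included the immunoproteasome subunits Psmb10, from 15.2, 12.7, 12.7, 11.02 and 11.4 CPM to between 23.2 and 30.8 CPM (median 25.5) (log2 fold change 1.06, SE 0.09, adjusted p = 1.96e-09), and Psmb8 (log2 fold change 0.63, SE 0.13, adjusted p = 2.63e-04; 1.02 within the 500s series), and the regulatory subunit Psmd10 (log2 fold change 0.55, SE 0.05, adjusted p = 9.59e-09). Of the endocytosis and lysosome list, 24 of 39 (61.5%) were at vehicle level and 2 were called lower. Endothelial markers were at vehicle level in 8 of 10 and podocyte markers in 5 of 8, with endothelial sums of 708 to 811 CPM in vehicle and 721 to 825 CPM in cotreated kidneys.

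Ribosomal protein genes moved together upward: 60 of 82 rose and 3 fell, at a median of 0.45 beside 0.57 for cisplatin alone, and 21 were at vehicle level. Rps27l, a ribosomal protein gene that is itself a p53 target, was at 50.2, 47.3, 50.4, 41.9 and 33.1 CPM in vehicle and between 111 and 126 CPM (median 117) in cotreated kidneys (log2 fold change 1.40, SE 0.09, adjusted p = 3.56e-11). Rpl10a rose (log2 fold change 1.03, SE 0.12, adjusted p = 1.10e-07), and Rpl15 fell (log2 fold change -0.56, SE 0.08, adjusted p = 1.84e-06). Rpl24 rose at under 1 CPM with overlapping groups (log2 fold change 1.07, SE 0.31, adjusted p = 0.0041), a call lost within the 500s series (0.33, adjusted p = 0.425), with the fat covariate (0.86, adjusted p = 0.053) and with the KW6002 mice as the reference (0.34, adjusted p = 0.276). Rpl4 (log2 fold change 0.39, SE 0.05, equivalence adjusted p = 0.0434) and Rpl7 (log2 fold change 0.24, SE 0.05, equivalence adjusted p = 1.41e-04) were within the bound. Reads of these genes may be split with their many pseudogenes.

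Of 20 tested genes of the adenosine pathway, 9 rose, 5 fell, 8 (40.0%) were at vehicle level and 4 (20%) were called. The median was 0.18, and 0.03 within the 500s series. Adora2a (chr10:75316877-75334784), the A2AR receptor that KW6002 blocks, was at 3.85, 2.61, 3.80, 5.04 and 3.48 CPM in vehicle and between 3.74 and 4.78 CPM (median 4.16) in cotreated kidneys, which placed it at vehicle level (log2 fold change 0.16, SE 0.14, equivalence adjusted p = 0.0263). The cisplatin libraries were all above both groups, at 5.55 to 8.37 CPM.

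Matrix genes were called about as often as all genes. Of 55 collagen and matrix genes, 24 rose and 12 fell, with 3 and 4 called (12.7% against 13.4% of all genes), 8 were at vehicle level and the median was 0.26 beside 0.94 for cisplatin alone. Within the 500s series 15 rose and 13 fell, and with the KW6002 mice as the reference the median was 0.12. Mgp, matrix Gla protein, was at 91.7, 56.1, 67.5, 82.6 and 75.04 CPM in vehicle and between 151 and 276 CPM (median 203) in cotreated kidneys (log2 fold change 1.45, SE 0.16, adjusted p = 1.35e-07). Lox, the collagen crosslinking enzyme, rose with overlapping groups (log2 fold change 1.06, SE 0.28, adjusted p = 0.0027), a call lost within the 500s series (0.80, adjusted p = 0.0743). Col5a3 fell from 16.3, 20.4, 6.12, 8.84 and 7.81 CPM to between 2.42 and 3.92 CPM (median 2.89) (log2 fold change -1.95, SE 0.25, adjusted p = 5.31e-07). Sparc was at vehicle level (log2 fold change 0.11, SE 0.14, equivalence adjusted p = 0.0133) with 330.5 to 435 CPM under cisplatin, and so was Lamb1 (log2 fold change 0.25, SE 0.06, equivalence adjusted p = 9.44e-04).

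TGF-beta and fibroblast activation genes rose in 11 of 26 and fell in 4, at a median of 0.07 beside 0.84 for cisplatin alone. That median was 0.21 within the 500s series, 0.14 with the number series as a covariate, 0.37 with the fat covariate and 0.23 with the KW6002 mice as the reference. Tgfbi (log2 fold change 0.83, SE 0.19, adjusted p = 9.36e-04; 0.50 against the KW6002 mice) and Fst, the activin-binding follistatin (log2 fold change 1.49, SE 0.30, adjusted p = 2.47e-04), rose with overlapping groups, and Smad3 (log2 fold change 0.02, SE 0.09, equivalence adjusted p = 5.11e-05) and Skil (log2 fold change 0.07, SE 0.08, equivalence adjusted p = 5.51e-05) were at vehicle level. Fap fell with overlapping groups (log2 fold change -0.68, SE 0.29, adjusted p = 0.0492), and the call did not hold within the 500s series (log2 fold change 0.06, adjusted p = 0.865), nor without vehicle replicate 1 or 2 or cotreated replicate 1, 2, 3, 5 or 6 (-0.72 to -0.42, adjusted p = 0.0537 to 0.223). The matrix proteases and their inhibitors split evenly, with 7 of 30 tested rising, 9 falling and 6 at vehicle level.

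DNA replication genes rose in 17 of 50 (34.0%) and fell in 7, with 2 (4.0%) called and 22 (44.0%) at vehicle level, at a median of 0.15. Rrm2, the inducible ribonucleotide reductase subunit, was at 6.15, 4.97, 3.86, 2.68 and 4.39 CPM in vehicle and between 7.79 and 10.9 CPM (median 9.41) in cotreated kidneys (log2 fold change 1.10, SE 0.15, adjusted p = 1.95e-06). Chaf1b, of chromatin assembly, rose without overlap (log2 fold change 1.03, SE 0.14, adjusted p = 1.82e-06) and Uhrf1 with overlap (log2 fold change 0.88, SE 0.20, adjusted p = 7.20e-04; 1.46 within the 500s series). Rpa1 (log2 fold change -0.02, SE 0.05, equivalence adjusted p = 2.46e-08) and Rfc1 (log2 fold change -0.05, SE 0.05, equivalence adjusted p = 2.27e-07) were at vehicle level. Within the 500s series, 24 of the 50 rose and 3 fell at a median of 0.35.

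Of 51 DNA repair genes, 25 (49.0% against 41.2% of all genes) were at vehicle level, 16 rose and 12 fell, and 5 (9.80%) were called. Mgmt (chr7:136894614-137130266), which removes alkyl groups from guanine, was at 5.44, 6.22, 6.59, 5.85 and 4.91 CPM in vehicle and between 23.6 and 31.1 CPM (median 25.97) in cotreated kidneys (log2 fold change 2.20, SE 0.09, adjusted p = 6.88e-15). Rev1, a translesion polymerase that helps cells copy past cisplatin adducts, rose, lying at 20.01 to 25.5 CPM in vehicle and 42.6 to 54.4 CPM in cotreated kidneys (log2 fold change 1.09, SE 0.07, adjusted p = 4.86e-11), and Brca1 rose (log2 fold change 1.08, SE 0.26, adjusted p = 9.37e-04), a call lost with the KW6002 mice as the reference (0.44, adjusted p = 0.102). Rad51b had 9 to 16 reads per vehicle library and 0 to 6 per cotreated library (adjusted p = 3.09e-04). Xrcc5 of end joining (log2 fold change -0.12, SE 0.05, equivalence adjusted p = 1.06e-06) and Rev3l, the partner polymerase of Rev1 (log2 fold change 0.22, SE 0.07, equivalence adjusted p = 0.0013), were within the bound.

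Mitosis was the cell cycle program in which cotreated kidneys lay below vehicle. Of 65 tested genes of 67, 3 rose, 22 fell (12 called), 11 were at vehicle level and 31 passed neither test, at a median of -0.34 against 0.96 for cisplatin alone. The direction was not kept without the 300s series. Per mouse, the list's mean log2 ratio to the vehicle mean was 0.24 and 0.28 in vehicle replicates 1 and 2, -0.26 and -0.22 in replicates 4 and 5, and -0.46 to -0.02 in cotreated mice. Within the 500s series, 6 genes rose and 8 fell at a median of 0.09, and with the number series as a covariate 7 rose and 10 fell at a median of 0.01. What the number series stands for is not given in the sources used here.

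Some mitosis genes were low in either comparison. Cenpe (chr3:135212537-135273611), the kinetochore motor, was at 3.50, 3.85, 3.23, 2.29 and 2.31 CPM in vehicle and between 0.812 and 1.40 CPM (median 1.06) in cotreated kidneys (log2 fold change -1.47, SE 0.21, adjusted p = 3.25e-06), and within the 500s series the change was -1.08 (adjusted p = 0.000993). Aspm, of the spindle pole, fell (log2 fold change -1.60, SE 0.30, adjusted p = 7.91e-05; within the 500s series -1.16, adjusted p = 0.0121). Cit, citron kinase of cytokinesis (log2 fold change -2.06, SE 0.24, adjusted p = 2.13e-07; -1.77 within the 500s series), and the kinesin gene Kif20b (log2 fold change -2.02, SE 0.32, adjusted p = 1.16e-05; -2.55 within it) fell as well. Kifc1, a kinesin of spindle assembly, rose in both (log2 fold change 1.52, SE 0.26, adjusted p = 2.62e-05; 2.18 within the 500s series). Pttg1, securin (log2 fold change -0.24, SE 0.06, equivalence adjusted p = 2.30e-04), and the checkpoint gene Bub3 (log2 fold change 0.07, SE 0.04, equivalence adjusted p = 1.63e-08) were at vehicle level.

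Mitotic genes often carry the CHR element, TTTGAA, near their start, where cell cycle repressor complexes act, and it was searched on both strands from 250 bases before to 50 after the gene starts of the RefSeq table. It was found in 40 of the 54 tested list members with an entry (74.1%), beside 14.7% of the 12305 tested genes and 20.2% of the 27025 genes in the table. The promoters of 3 of these members are printed, Bub3 as a member at vehicle level and Kif11 and Prc1 as members below vehicle, the last 2 chosen after their values were seen; capitals mark the element, TTTGAA or its other strand TTCAAA, in GRCm38.p6. They lie at chr7:131560270-131560369, chr19:37376282-37376381 and chr7:80294376-80294475, all on the plus strand, with the element 43, 19 and 30 bases before the gene start.
Bub3: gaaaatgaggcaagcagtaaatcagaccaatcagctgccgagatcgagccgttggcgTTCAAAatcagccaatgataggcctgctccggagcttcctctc
Kif11: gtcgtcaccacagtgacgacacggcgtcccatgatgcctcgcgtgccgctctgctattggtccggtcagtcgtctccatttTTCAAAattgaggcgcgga
Prc1: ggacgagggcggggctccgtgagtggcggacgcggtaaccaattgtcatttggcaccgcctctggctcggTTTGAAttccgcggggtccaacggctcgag
Kif11, the spindle motor Eg5, was at 2.36, 2.81, 1.61, 1.94 and 1.43 CPM in vehicle and between 0.533 and 1.98 CPM (median 0.951) in cotreated kidneys (log2 fold change -0.85, SE 0.25, adjusted p = 0.00542), and Prc1, a midzone crosslinker, fell, lying at 0.951 to 2.59 CPM in vehicle and 0.583 to 1.79 CPM in cotreated kidneys (log2 fold change -0.79, SE 0.31, adjusted p = 0.0318), both with overlapping groups. Neither call held within the 500s series, where the changes were -0.59 (adjusted p = 0.163) and -0.11 (adjusted p = 0.834), nor with the fat covariate (-0.43, adjusted p = 0.196 and -0.32, adjusted p = 0.482) or the number series as a covariate (-0.67, adjusted p = 0.0515 and -0.30, adjusted p = 0.463). The call of Prc1 was also lost without vehicle replicate 1 or 2 or cotreated replicate 2, 3 or 4 (-0.72 to -0.57, adjusted p = 0.0646 to 0.134).

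Interferon-gamma-induced GTPases, which act against pathogens inside cells, were raised although cisplatin alone left the list near vehicle. Of 18 tested genes, 12 rose (7 called) and 1 fell, at a median of 0.80 beside 0.06 for cisplatin alone. Igtp (chr11:58199556-58207591) was at 19.9, 15.9, 16.2, 13.4 and 13.6 CPM in vehicle and between 35.9 and 66.7 CPM (median 43.5) in cotreated kidneys (log2 fold change 1.55, SE 0.13, adjusted p = 9.51e-10), above the 12.2 to 15.1 CPM of cisplatin (log2 difference 1.78, SE 0.12, adjusted p = 1.92e-10). Irgm1 was at 66.3, 51.6, 56.6, 48.7 and 47.1 CPM in vehicle and between 97.8 and 192 CPM (median 136) in cotreated kidneys (log2 fold change 1.38, SE 0.11, adjusted p = 1.41e-09), again above cisplatin at 58.0 to 66.5 CPM. Within the 500s series the changes were 1.77 and 1.56, so these rises did not rest on the 300s. Gbp7 rose (log2 fold change 1.60, SE 0.13, adjusted p = 9.02e-10), Gbp10 had 11 to 28 reads in vehicle and 0 to 6 in cotreated libraries (adjusted p = 1.74e-05), and Gbp4 (log2 fold change 0.18, SE 0.12, equivalence adjusted p = 0.02) and Gbp5 (log2 fold change 0.07, SE 0.14, equivalence adjusted p = 0.00664) were at vehicle level. No gene of this list was at vehicle level within the 500s series, with the number series or fat covariate, or with library size scaling. Igtp overlaps Irgm2 on its own strand and the Gbp genes have close relatives. Genes of the type I interferon response rose in 19 of 36 with 2 called and fell in 6, at a median of 0.36 beside 0.71 for cisplatin alone and 0.57 within the 500s series; Oasl1 (log2 fold change 1.22, SE 0.19, adjusted p = 1.15e-05), Ifit1 (log2 fold change 1.03, SE 0.12, adjusted p = 1.15e-07) and Mx2 (log2 fold change 0.90, SE 0.20, adjusted p = 6.57e-04) rose, Oas3 fell with overlapping groups (log2 fold change -1.32, SE 0.38, adjusted p = 0.00392; -0.03, adjusted p = 0.961 within the 500s series and -0.60, adjusted p = 0.244 with the fat covariate), and Ifih1 (log2 fold change 0.31, SE 0.06, equivalence adjusted p = 0.0055) and Oasl2 (log2 fold change 0.17, SE 0.10, equivalence adjusted p = 0.0065) were within the bound.

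Cholesterol genes, which respond to the sterol-sensing factor SREBP2, rose in 18 of 32 (1 called) and fell in 9 (2 called). The median was 0.29, where cisplatin alone had -0.59. Fdps, of isoprenoid synthesis, rose without overlap, from 2.53, 2.81, 1.34, 2.01 and 2.15 CPM to between 3.16 and 5.19 CPM (median 4.22) (log2 fold change 0.96, SE 0.18, adjusted p = 9.39e-05). Cyp51, the sterol demethylase, fell, lying at 187 to 319.5 CPM in vehicle and 64.3 to 101.7 CPM in cotreated kidneys (log2 fold change -1.54, SE 0.13, adjusted p = 1.39e-09), still above the 23.3 to 27.9 CPM of cisplatin. Scap, the escort protein of SREBP2, was within the bound (log2 fold change 0.33, SE 0.06, equivalence adjusted p = 0.00775). The sterol regulatory element TCACNCCAC was found in 1 of 23 list members with an entry, Hmgcs1, and in 1.47% of the tested genes. Hmgcs1 itself fell (log2 fold change -1.27), and whether its groups overlapped is not given here.

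In the list of the unfolded protein response and its ATF4 branch, 16 of 33 tested rose, 8 fell and 12 were at vehicle level. The members that rose furthest were ATF4 targets and stress-induced regulators. Asns, asparagine synthetase, was at 4.57, 7.02, 3.56, 4.68 and 3.25 CPM in vehicle and between 14.6 and 25.3 CPM (median 20.5) in cotreated kidneys (log2 fold change 2.11, SE 0.20, adjusted p = 1.03e-08), above the 6.09 to 9.22 CPM of cisplatin (log2 difference 1.29, SE 0.19, adjusted p = 6.12e-06). Ddit4, an inhibitor of mTORC1, rose (log2 fold change 2.24, SE 0.16, adjusted p = 2.99e-10), as did the transcription factor gene Cebpb (log2 fold change 2.31, SE 0.41, adjusted p = 6.61e-05; 1.47 within the 500s series), with overlapping groups. Shmt2, mitochondrial serine hydroxymethyltransferase, fell (log2 fold change -0.46, SE 0.10, adjusted p = 5.34e-04). The chaperones Hspa5 (log2 fold change -0.18, SE 0.09, equivalence adjusted p = 0.00222) and Canx (log2 fold change -0.11, SE 0.04, equivalence adjusted p = 3.13e-08) were at vehicle level.

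Some genes stood apart in the cotreated kidneys, differing from vehicle, KW6002 and cisplatin in the same direction by more than 1 on the log2 scale. There were 36 such genes that were higher (0.21% of those tested) and 20 that were lower (0.117%). Ugt1a2 (chr1:88200601-88218997), a bilirubin and drug glucuronosyltransferase of a locus with shared exons, was at 0.907, 1.68, 1.68, 1.73 and 1.99 CPM in vehicle and between 124 and 260.4 CPM (median 204) in cotreated kidneys (log2 fold change 6.97, SE 0.35, adjusted p = 2.96e-13). It reached 6.85 to 32.8 CPM with cisplatin (log2 difference from cotreatment 3.66, SE 0.25, adjusted p = 3.03e-10). Cyp27b1 (chr10:127048250-127053006), the renal enzyme that activates vitamin D, was at 19.1, 9.95, 15.4, 10.4 and 7.62 CPM in vehicle, 10.2 to 31.1 CPM with cisplatin and between 66.0 and 117 CPM (median 76.4) in cotreated kidneys (log2 fold change 2.69, SE 0.26, adjusted p = 2.40e-08). Ugt2b5 (log2 fold change 2.53, SE 0.37, adjusted p = 4.83e-06) and the transcript Gm47889 (log2 fold change 2.95, SE 0.30, adjusted p = 2.82e-08) were also higher, at 2.63 to 13.6 CPM and 2.69 to 7.01 CPM against 0.954 to 2.33 CPM and 0.906 to 1.78 CPM with cisplatin.

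Ces1g (chr8:93302369-93337308), a carboxylesterase, led the genes that were lower: it was at 23.4, 26.1, 23.6, 14.9 and 12.9 CPM in vehicle, 11.4 to 22.8 CPM with cisplatin and between 0.720 and 1.48 CPM (median 1.25) in cotreated kidneys (log2 fold change -4.04, SE 0.26, adjusted p = 7.97e-12). No cotreated library came near the other groups. Col27a1, a fibrillar collagen gene, was at 266, 256, 257, 157 and 150.4 CPM in vehicle, 178 to 225 CPM with cisplatin and between 37.1 and 73.2 CPM (median 47.1) in cotreated kidneys (log2 fold change -2.05, SE 0.20, adjusted p = 1.40e-08). The transcript Gm16755 (log2 fold change -1.77, SE 0.24, adjusted p = 1.14e-06), Acsm1 and Cenpe completed the 5 lower genes of the rule. With the fat covariate, 34 genes stood apart, 19 higher and 15 lower, and without cotreated replicate 1 there were 34 lower genes in place of 20.

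**Figure D4:**
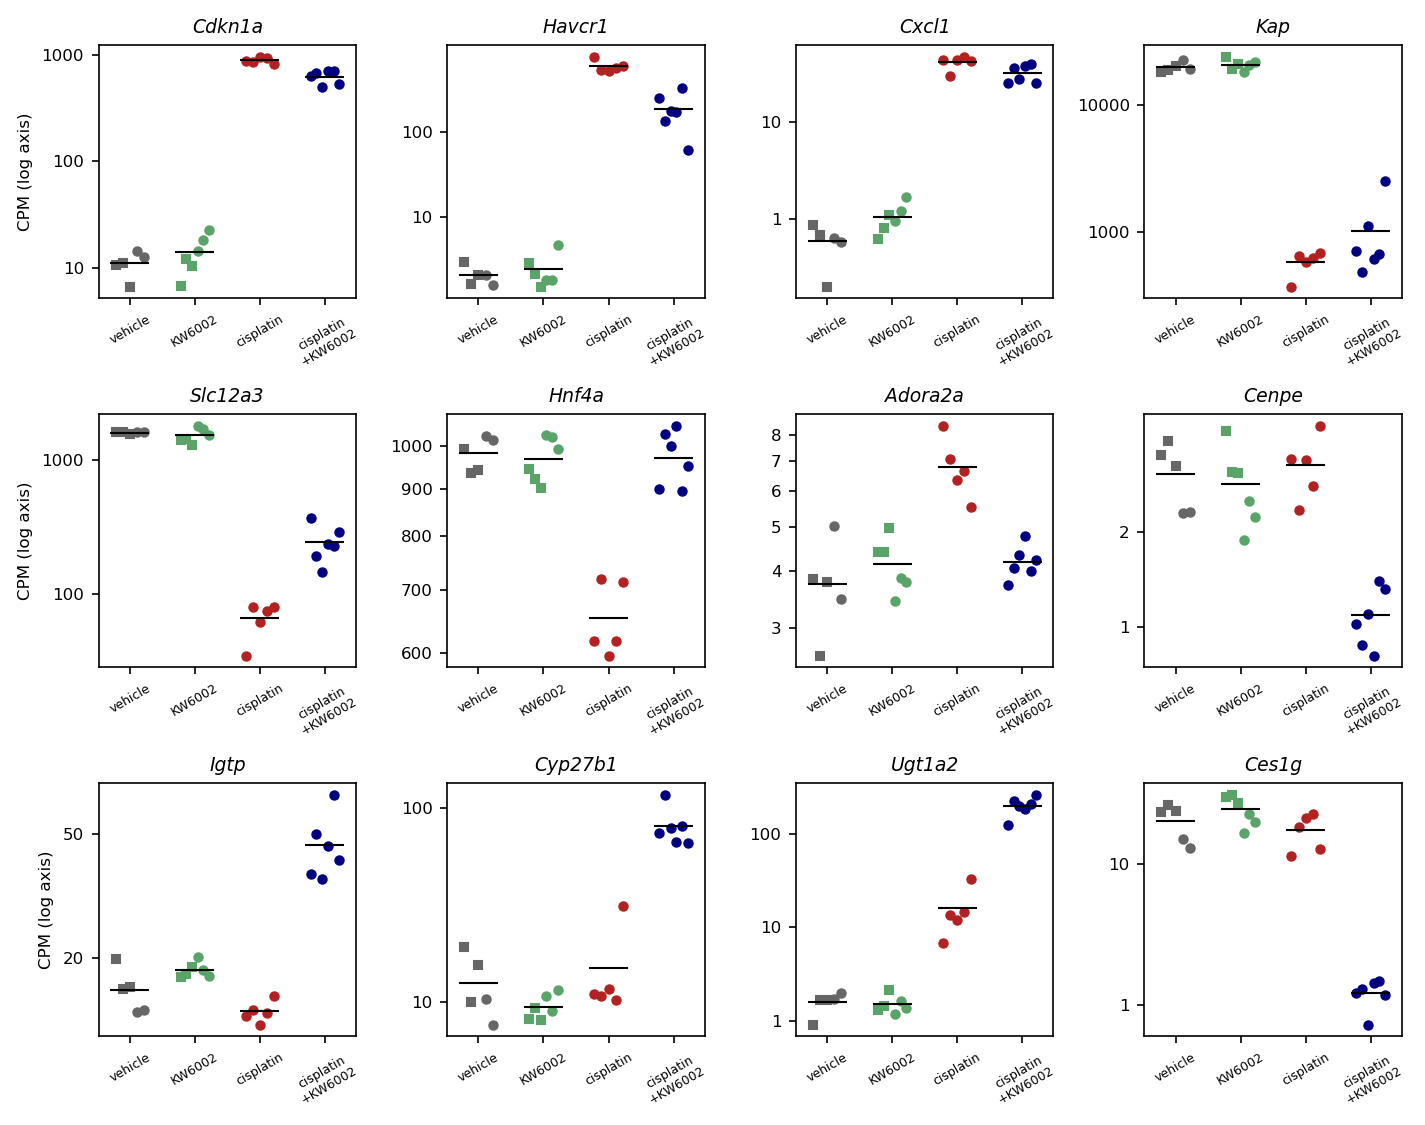
Level of 12 genes in each mouse (y axis, CPM on a log scale) in vehicle (n = 5), KW6002 (n = 6), cisplatin (n = 5) and cisplatin plus KW6002 (n = 6) kidneys; squares are sample numbers in the 300s, circles those in the 500s, and bars the group means. Cdkn1a and Havcr1 stay far above vehicle in all cotreated mice, Slc12a3 stays below, Hnf4a and Adora2a lie at vehicle level, and Ugt1a2, Cyp27b1, Igtp, Cenpe and Ces1g leave the range of the other 3 groups.

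Clock genes also differed from vehicle, by less when the KW6002 mice were the reference. Of 24 genes, 15 rose and 5 fell against vehicle, at a median of 0.51, but with the KW6002 mice as the reference 11 rose and 4 fell at a median of 0.12. Cry1, a core repressor, was at 6.18, 3.25, 10.7, 3.63 and 3.12 CPM in vehicle and between 17.7 and 28.2 CPM (median 20.6) in cotreated kidneys (log2 fold change 2.005, SE 0.28, adjusted p = 2.93e-06), and its change with KW6002 alone was 1.32, SE 0.28, adjusted p = 0.0853. Nfil3 (log2 fold change 2.90, SE 0.34, adjusted p = 2.49e-07) and Per1 (log2 fold change 1.85, SE 0.19, adjusted p = 4.19e-08) rose, with changes of 1.17 and 0.86 under KW6002 alone that did not pass the test. Nr1d1, the repressor REV-ERB-alpha, was at 76.3, 98.5, 50.6, 148 and 179.7 CPM in vehicle and between 19.8 and 45.9 CPM (median 35.6) in cotreated kidneys (log2 fold change -1.69, SE 0.43, adjusted p = 0.002). Against the KW6002 mice the changes were 0.68 for Cry1, 1.74 for Nfil3, 0.99 for Per1 and -0.83, adjusted p = 0.092 for Nr1d1. The hour of tissue collection is not given in the sources used here, and its part in these changes was not tested.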

How the data were processed

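Polyadenylated RNA of whole kidney was prepared with a stranded kit and sequenced as 50-base reads. Per the labels and the submitters' processing notes, the authors demultiplexed with bcl2fastq 2.17.1.14, aligned to mm10 with STAR and counted reads per gene with HTSeq 0.6.1p1, so the deposited values are raw read counts per gene. The strand setting of the counting is not given in the sources used here, and reads of overlapping or near-identical genes may be split. Another 66 unnamed empty columns of the table were not used. Nothing in the labels ties the mice of a group beyond their numbers, so p-values measure the spread between these mice.

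From the counts, edgeR 4.0.16 in R 4.3.3 gave TMM-scaled CPM and a quasi-likelihood fit of all 22 libraries with 1 mean per group (vehicle 5, KW6002 6, cisplatin 5, cisplatin plus KW6002 6), on the 17131 genes with at least 10 reads (0.306 CPM) in 5 libraries. The p-values were adjusted by Benjamini-Hochberg over all genes tested. Genes counted as called have a log2 fold change beyond 1 with adjusted p under 0.01, while a call lost at a named gene refers to adjusted p below 0.05. Equivalence to vehicle took the larger p of 2 one-sided tests against 0.5 on the log2 scale in each direction, and genes that stand apart took the largest p of the 3 contrasts. The fits were checked on simulated data.

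Named genes were the 8 with the largest change in each direction (average log2 CPM of at least 3, groups not overlapping), the 5 that stood apart most in each direction (at least 1), up to 3 members per list in its main direction, 1 against it and 2 at vehicle level, genes the study names for kidney, and Kif11 and Prc1. Some genes that this rule names are not reported here. The lists and the comparison were chosen with earlier results of these data known, and no test was run over a list. Promoters came from a RefSeq table for GRCm38.p6. Alternatives were RLE factors, library size, DESeq2 1.42.0, other filters and bounds, a fold-change test, each mouse left out and these 2 groups alone. Others were the 500s series alone or as a covariate, the mean log2 CPM of the fat markers as a covariate and the KW6002 reference.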

Additional observations from a re-analysis of the deposited data

Results flagged for a closer look

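In 32 of 518 groups checked, 1 library lay far from the others of its group; chance places about 1 group in 20 there. Of these, 11 were cotreated replicate 6, the library whose adrenal marker sum was 84.4 CPM against 1.99 to 3.25 CPM in the other 5. In the same library Kap was at 2530 CPM (others 486 to 1116), Aqp1 at 1812 (1312 to 1411), Atp1b1 at 2784 (2228 to 2426), Sdha at 779 (650.5 to 692), Rpa1 at 61.5 (54.7 to 57.2) and Ugt1a7c at 311 (266 to 279), all higher than in the other cotreated mice. Chaf1b at 2.81 CPM (3.45 to 3.71) and Tjp1 at 118 CPM (126 to 131) were lower there. Its mean log2 ratio to vehicle was -0.29 over loop and distal salt transport genes (others -0.55 to -0.45) and -0.36 over the TCA cycle list (-0.53 to -0.49), so it lay closer to vehicle on both. The part of the adrenal RNA in these values was not tested.

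Among the other cotreated mice, replicate 1 stood apart with Orm1 at 1.95 CPM (others 0.0627 to 0.630), H2-Ob at 0.863 CPM (0.157 to 0.315), Cox8a at 362 CPM (442 to 472) and a principal cell marker sum of 578 CPM (859 to 960.5). Replicate 3 had C3 at 1295 CPM (427 to 733), Cldn23 at 1.17 CPM (0.487 to 0.735), a B cell marker sum of 18.9 CPM (3.95 to 8.15) and a mean log2 ratio of 0.36 over the adenosine pathway (0.14 to 0.20). Replicate 2 had Cyp27b1 at 117 CPM (66.0 to 80.5).

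In vehicle, replicate 3 had Slc22a30 at 140.2 CPM (others 112 to 119), Slc12a3 at 1553 CPM (1603 to 1612), Lox at 2.92 CPM (6.77 to 7.88) and Ugt2b5 at 0.907 CPM (1.36 to 1.53). Replicate 2 had Cxcl12 at 107 CPM (169 to 187), Cbr3 at 2.04 CPM (1.27 to 1.49) and Aspm at 2.45 CPM (0.911 to 1.13). Replicate 5 had Fgb at 1.43 CPM (2.08 to 2.25), Nfe2l2 at 134 CPM (109.8 to 113) and Cebpb at 12.3 CPM (2.02 to 4.72), and replicate 1 had Cldn2 at 790.1 CPM (716 to 737) and Ugt1a2 at 0.907 CPM (1.68 to 1.99).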

How the results depend on the processing

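With each mouse left out in turn, 2173 to 2368 genes were called, 947 to 1012 of them higher and 1226 to 1377 lower, 6748 to 6964 were at vehicle level, and 47 to 72 stood apart, 30 to 38 higher and 16 to 34 lower, the 34 without cotreated replicate 1. Other thresholds moved the counts most. A fold-change test against 1 called 899 genes (426 higher, 473 lower), an adjusted p below 0.05 with no fold gave 10222 (5108 and 5114), a bound of 0.32 placed 3433 and a bound of 1 placed 12426 genes at vehicle level, and without a fold threshold at an adjusted p below 0.05, 997 genes stood apart (613 higher, 384 lower). With the fat covariate, 1921 genes were called (928 higher, 993 lower) and 34 stood apart (19 higher).

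Reversed list medians were those of chemokines with the CPM filter (-0.11), the lysosome list with library size scaling (0.025) and mitosis with the number series as a covariate (0.011) or within the 500s series (0.093). Scaled by library size, Hnf4a (0.14), Psmd2 (0.14), Rpa1 (0.14), Xrcc5 (0.036) and Canx (0.047) changed sign. B2m (0.20) and Fap (0.063) did so within the 500s series, and Fap (0.11) and Slc36a2 (0.13) with the fat covariate. The causes were not tested. Of 38 list medians, all genes included, 4 shifted in every setting by less than the SD of the list's mean over cotreated mice. The other 34 shifted further in some setting. Reversals aside, 30 shifted with library size scaling, 15 within the 500s series, 11 with the fat covariate and 9 with the number series covariate. Of 206 named genes, 155 stayed on their side of the threshold for a difference, adjusted p of 0.05, whatever their sign where it was not passed. This covers those of the 22 settings that tested the gene. The threshold was lost in some settings by 27 and passed only in some by 20. Whether single named genes stayed at vehicle level was not counted over the settings. With the replicate number as a block, 2296 genes were called (1007 higher, 1289 lower), 6913 were at vehicle level and 56 stood apart; the numbers did not pair the mice, since deviations of same-numbered mice correlated at -0.175 to 0.0865 and 2 of 5 correlated best with their own number. DESeq2 called 2593 genes, these 2 groups alone 1955, the 500s series 2073 and the KW6002 reference 2037. Genes under about 10 reads per library are limited by depth.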
